A study of Mus musculus with 19 samples.

Results

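The 10 genes described here mark the stromal progenitors of fat, the cells from which new adipocytes arise: Pdgfra, Pdgfrb, Dpp4, Pi16, Cd34, Ly6a, Dlk1, Icam1, F3 and Wisp2. They were taken by symbol from the 24348 genes in the deposited count files, as a list drawn up with earlier results of these data known, and all 10 were among the 16015 genes tested. The 19 libraries came from whole perigonadal fat, the abdominal depot beside the gonads, of C57BL/6 mice in a pair of weight-gain models, a 60% high-fat diet (HFD) and Ensure, a liquid nutrition formula. Mice were sampled either fed at their peak weight or after 24 hours without food, which gave HFD fed (n = 4, titled ALO), HFD fasted (n = 4, ALOneg), Ensure fed (n = 6, OIO) and Ensure fasted (n = 5, OIOneg). The labels used here give no age, sex or genetic change, do not state that each library is a separate animal, and number the libraries across the whole series (p-values therefore reflect only how much these samples vary). Libraries are named by group and number.

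Adipose progenitors sit in the stroma between adipocytes and along vessels. Interstitial progenitors that carry DPP4 and PI16 lie in the collagen sheets around the depot and can give rise to ICAM1-positive committed preadipocytes, while F3, also called CD142, marks a stromal population that can restrain fat cell formation in other cells. PDGF receptors, CD34 and the Ly6a product SCA-1 are the surface markers by which fat stromal cells are commonly sorted. Several of these genes are also expressed by other cells of the tissue: Cd34 and Ly6a by endothelium, Pdgfrb by pericytes, and Icam1 and F3 by several activated cell types.

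Library depth was 12.82 to 22.55 M counts in genes, at which 3 counts correspond to 0.124 to 0.210 counts per M (CPM, scaled by TMM). The tissue label was checked with 10 adipocyte markers, which summed to 7298 to 20740 CPM, and no gene of the marker lists was at 0 in all 19 libraries (in HFD fasted libraries the neutrophil gene Ngp was at 0 throughout). In 5 libraries genes of the epididymis and testis summed to over 100 CPM: Ensure fasted 2 and 5, Ensure fed 10 and 12, and HFD fasted 24. Ensure fasted 5 had the most, 9875 CPM. The kidney-type tubular epithelium gene Cdh16 was above 20 CPM in 3 of these and in Ensure fed 16, HFD fasted 26 and HFD fed 21, which makes 8 libraries in all. HFD fasted 28 had the highest macrophage marker sum, 6799 CPM, the lowest adipocyte marker sum of the HFD libraries, 8137 CPM, and the largest shares of reads outside genes and of reads aligned to several places, 17.3% and 27.7%, where the other HFD fasted libraries had 14.9 to 15.1% and 20.7 to 21.3%. All HFD libraries carry the lane token 7 in their labels, Ensure fed libraries 5, 6 and 7 and Ensure fasted libraries 5 and 6, so that diet and lane largely coincide.

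Food withdrawal went with a higher level of Wisp2 in both diets, about 4.06-fold with HFD and 3.62-fold with Ensure, and with higher Pdgfra, Dpp4 and Pi16 with Ensure. Between the diets, Pdgfra was lower in Ensure fed than in HFD fed libraries, and among fasted libraries Pi16 was higher and F3 lower with Ensure. Pdgfrb, Cd34, Ly6a, Dlk1 and Icam1 passed the test in none of the 5 comparisons. In whole tissue, more cells of a type and more RNA per cell cannot be told apart.

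**Figure D1:**
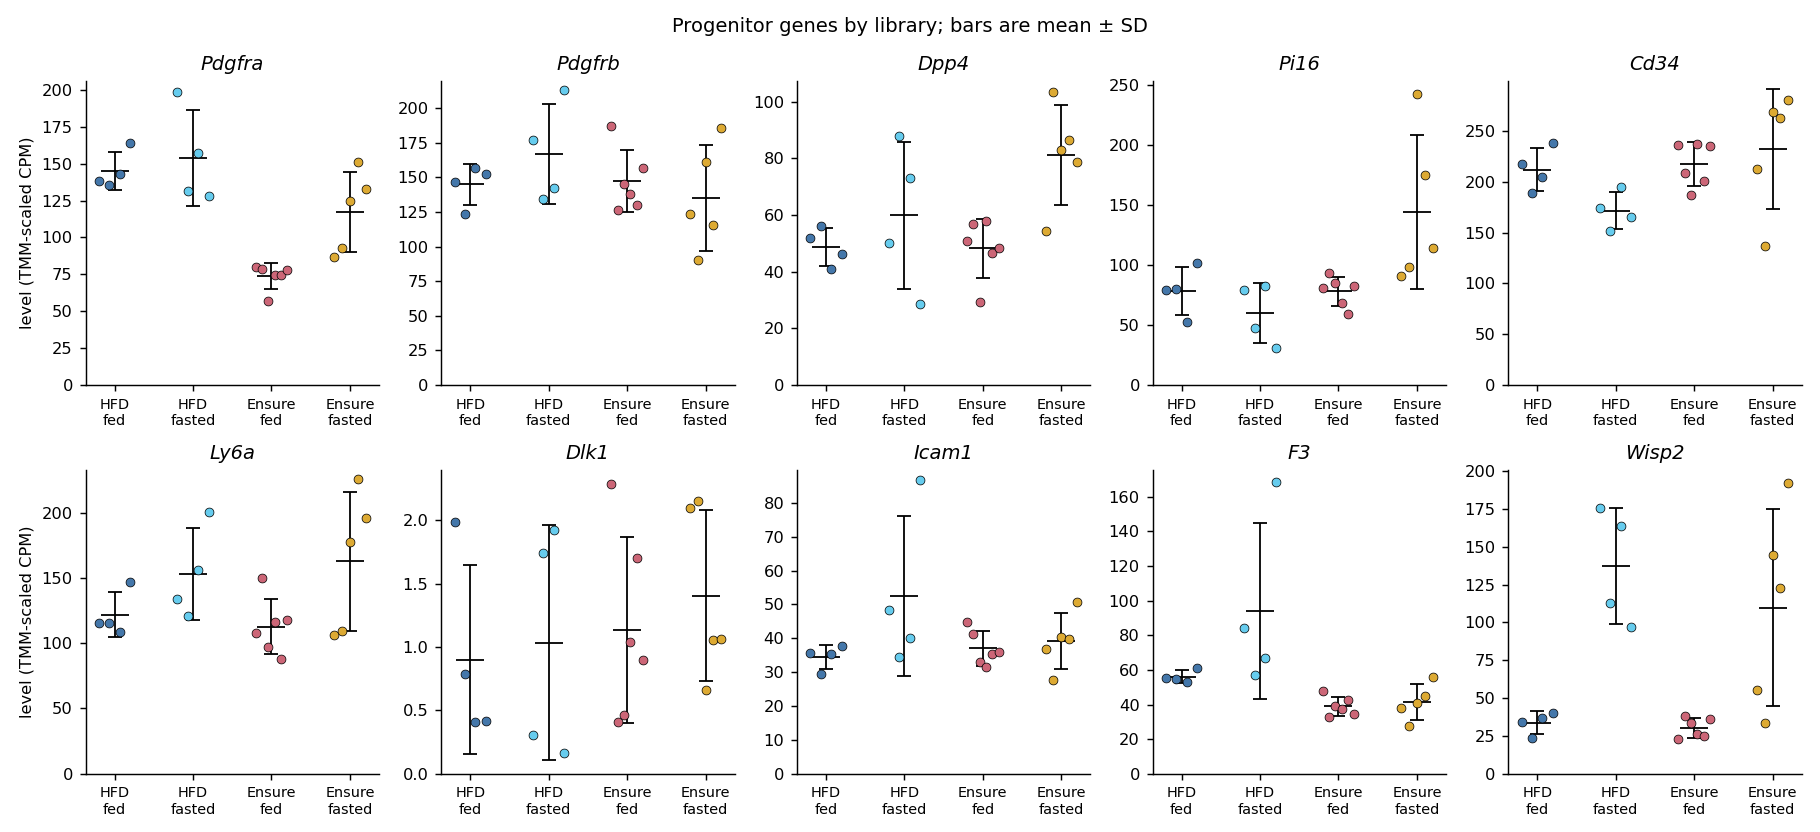
Level of each progenitor gene in TMM-scaled CPM (y axis, from 0) in every library (points) of the 4 groups (x axis), with the group mean and SD as bars. Wisp2 was at most 40.4 CPM in every fed library and at least 96.6 CPM in every HFD fasted one, and Pdgfra in Ensure fed libraries, at most 80.1 CPM, lay under all others.

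Scaled by exon length, the members spanned a wide range of levels. Ly6a was the most abundant per length, with a mean of 113 CPM per kb of exon over the 19 libraries and a range of 73.3 to 188. Wisp2 came next at 38.7 CPM per kb (lowest 12.1, median 19.9), then Cd34 at 28.9, Pdgfrb at 27.0 and F3 at 21.7. Pi16 had 14.4 CPM per kb, Pdgfra 11.7, Dpp4 9.42 and Icam1 9.24. Dlk1 was by far the lowest, at 0.201 CPM per kb. Neighbours in this order overlapped in their range over libraries, except Icam1 and Dlk1. The order of means is that over all libraries; within fed libraries Wisp2 was lower, 17.6 ± 3.8 CPM per kb in HFD fed (SD, n = 4) and 15.7 ± 3.3 in Ensure fed (SD, n = 6).

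**Figure D2:**
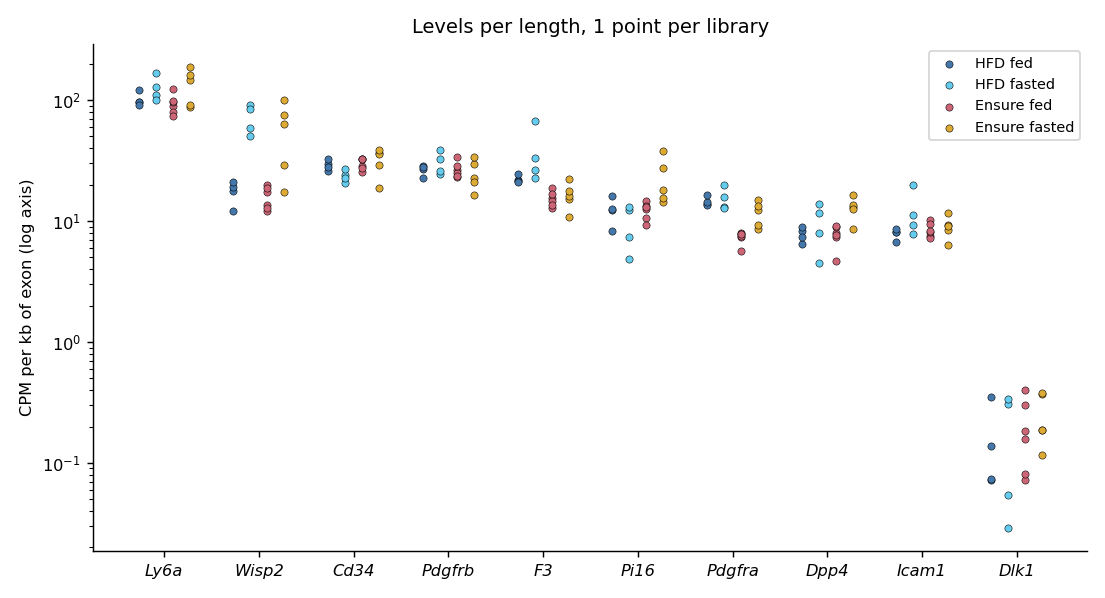
CPM per kb of exon (log axis) for each of the 10 genes, ordered by mean, with 1 point per library coloured by group. Ly6a is at 73.3 to 188 CPM per kb in every library, Dlk1 at 0.0291 to 0.405.

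Of the 10 members, 1 passed the test between HFD fasted and HFD fed libraries, higher, where 1.22% of all tested genes passed in either direction and 0.187% were higher (edgeR's quasi-likelihood test, Benjamini-Hochberg adjusted p under 0.05 over all genes). Between Ensure fasted and Ensure fed libraries 4 members passed, all higher, against 20.3% of all genes in either direction and 10.6% higher. The members' median log2 fold change was 0.25 with HFD and 0.42 with Ensure, beside 0.06 and 0.11 over all tested genes. In the difference between these responses (Ensure minus HFD), edgeR called 0 members and 0% of genes. At an unadjusted p under 0.05 it had 2 members and 7.71% of genes; DESeq2 called 0 members and 65 genes, and limma voom with quality weights 3 members and 1170 genes. Between Ensure fed and HFD fed libraries 1 member passed, lower, against 4.26% of genes in either direction and 2.17% lower. Between the fasted groups 2 passed, 1 in each direction, against 2.82% of genes in either direction, 1.63% higher and 1.19% lower with Ensure. Of the markers of other cell types, 6 of 8 smooth muscle genes were also called higher with Ensure fasting, but 0 without Ensure fasted 5, whose sum was 8897 CPM against 427 to 898 in the other 4 fasted and 504 to 716 in the fed libraries. Also with Ensure fasting, 2 of 5 skeletal muscle genes (Acta1 and Tnnc2), 1 of 9 mesothelial genes (Wt1, by 0.76 ± 0.17 on the log2 scale) and 1 of 8 tubular epithelium genes (Cldn3) were called higher, and 1 of 10 adipocyte genes (Lep) and 1 of 10 endothelial genes (Emcn) lower. Without the 5 libraries rich in epididymis and testis genes none of these 6 genes was called by edgeR, although Lep, Wt1 and Acta1 kept their calls in each omission of 1 library. With HFD fasting 1 of 8 pericyte genes, Rgs5, was called lower and 1 of 5 skeletal muscle genes, Acta1, higher, and each lost its call in 7 of 8 omissions. Between the diets, 5 of 6 mast cell genes were called lower with Ensure in both states (sums of 33.8 to 45.3 CPM in Ensure fed, 71.6 to 180 in HFD fed). The pericyte gene Cspg4 was called higher with Ensure in both states, by 0.97 ± 0.18 among fed and 1.14 ± 0.19 among fasted libraries. Of 6 neutrophil genes 1, S100a9, was called higher with Ensure among fed and 3, S100a9, Ngp and Retnlg, among fasted libraries. The fed call of S100a9 was lost in 5 of 10 omissions. The list's sums were 39.1 to 61.5 CPM in Ensure fed, 13.8 to 42.4 in HFD fed, 16.3 to 159 in Ensure fasted and 9.43 to 56.0 in HFD fasted libraries. The macrophage gene Trem2 was called lower with Ensure among fed libraries, a call lost in 9 of 10 omissions. Of the 10 macrophage genes, 5 had a log2 fold change above 0 there. The T cell gene Cd4 was called higher with Ensure among fed libraries. It was the only 1 of 7 T cell genes above 0, and their median log2 fold change was -0.32. The endothelial gene Vwf was called higher with Ensure among fasted libraries, a call lost in 6 of 9 omissions. The part of these cells in the members' values was not tested. The 5 comparisons share libraries, so their members' values below are not independent of each other.

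**Figure D3:**
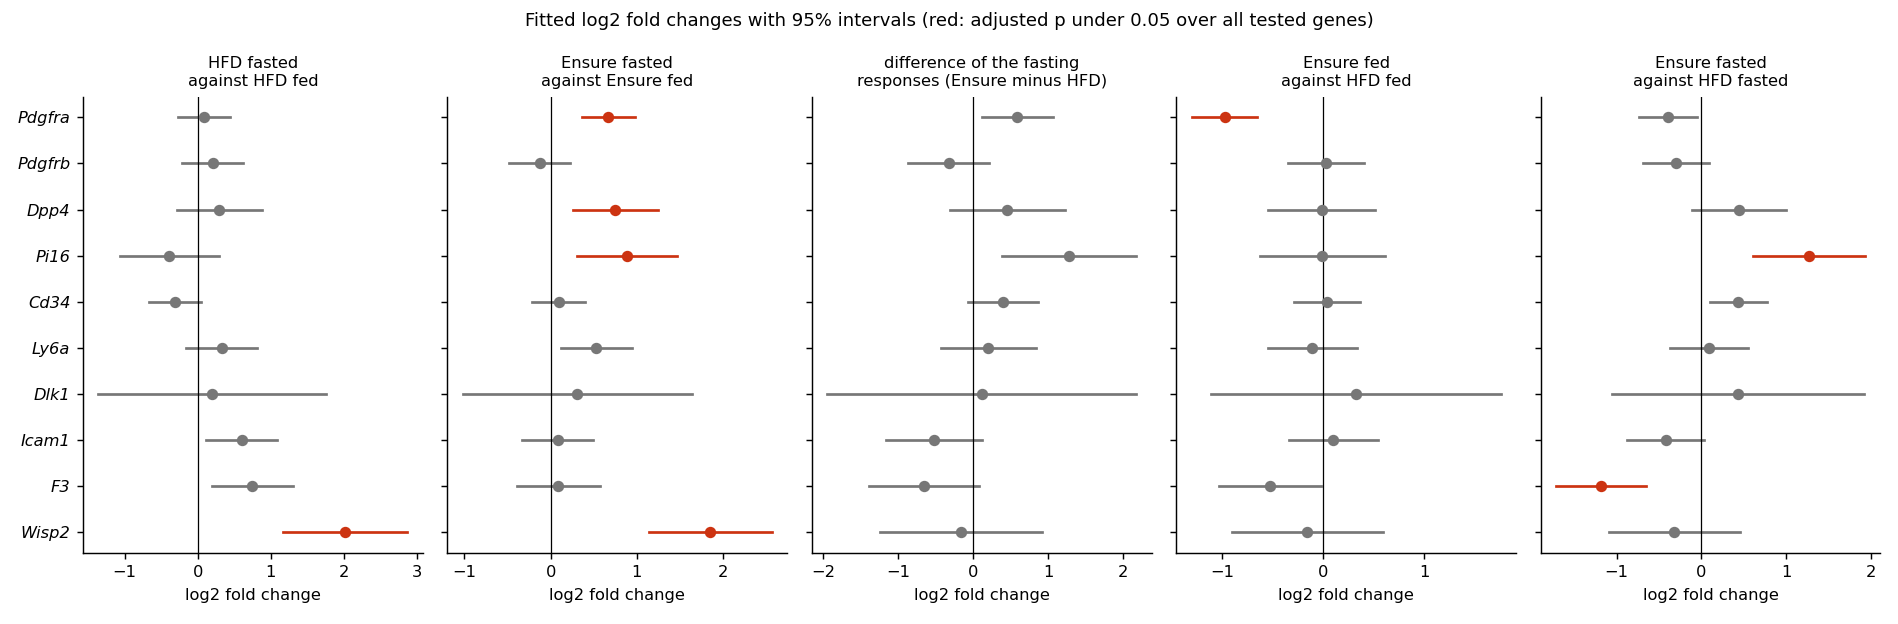
Fitted log2 fold change (points) with its 95% interval (lines) for each gene (rows) in the 5 comparisons (panels, each with its own x axis); red marks an adjusted p under 0.05. Wisp2 is red in both fasting panels, at 2.02 and 1.86, and Pdgfra at 0.67 with Ensure fasting and at -0.98 between the fed groups.

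Wisp2, also named Ccn5, encodes a secreted protein of the CCN family that stromal cells of fat release and that is tied to Wnt signalling and to the state of precursor cells. It was 34.4, 23.4, 37.0 and 40.4 CPM in HFD fed 21, 22, 25 and 27. In HFD fasted 23, 24, 26 and 28 it was 176, 113, 164 and 96.6 CPM. The fasted libraries were all higher, as was so for 2.24% of all genes, and the level rose by 2.02 ± 0.40 on the log2 scale (SE; adjusted p = 0.0229, edgeR), from 33.8 ± 7.3 to 137 ± 38 CPM (SD, n = 4 each). The call was lost without any one of HFD fed 21, 22 and 25 and HFD fasted 23 (adjusted p up to 0.0863), and at 0.0843 when these groups were fitted alone, with log2 fold changes of 1.88 to 2.18 over all 8 omissions.

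With Ensure, Wisp2 was lowest at 23.2, median 29.8 and highest at 38.3 CPM in the 6 fed libraries. In Ensure fasted 2, 5, 7, 8 and 17 it was 55.4, 33.4, 144, 123 and 192 CPM. Only Ensure fasted 5, the library with the highest sum of epididymis and testis genes, lay within the fed range. Ensure fasted 2, also rich in these genes, was the next lowest of the fasted libraries. The level rose by 1.86 ± 0.34 on the log2 scale (SE; adjusted p = 0.00127, edgeR) and passed in each of the 11 omissions of 1 library. Within lane 5 the single Ensure fed library had 23.2 CPM against 33.4 to 144 in 4 fasted ones. Within lane 6 the single fasted library had 192 CPM against 24.8 to 38.3 in 4 fed ones. The rise with Ensure minus that with HFD was fitted at -0.16 with a 95% interval of -1.24 to 0.92, and between the diets Wisp2 passed in neither state. None of the 4 tested relatives (Cyr61, Ctgf, Nov and Wisp1) of the CCN family passed in any comparison.

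The receptor Pdgfra, which binds PDGF ligands and marks adipose fibroblasts and progenitors, differed both between diets and with fasting. It was 138, 136, 143 and 164 CPM in HFD fed 21, 22, 25 and 27. In the 6 Ensure fed libraries the lowest was 56.6, the median 76.3 and the highest 80.1 CPM. The Ensure fed libraries were all lower, as was so for 7.37% of genes, and Pdgfra was lower with Ensure by a log2 fold change of -0.98 ± 0.15 (SE; adjusted p = 0.00254, edgeR). It passed in each of the 10 omissions of 1 library. In lane 7, the only lane these groups share, Ensure fed 18 had 78.0 CPM against 136 to 164 in the HFD fed libraries. With lane as a term the log2 fold change was -0.90 at an adjusted p of 0.9996, and 2 of all genes passed.

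In Ensure fasted 2, 5, 7, 8 and 17, Pdgfra was 86.9, 92.5, 124, 151 and 133 CPM, all above the highest Ensure fed library, as was so for 5.68% of genes. It rose by 0.67 ± 0.15 on the log2 scale (SE; adjusted p = 0.00455, edgeR), from 73.7 ± 8.7 (SD, n = 6) to 117 ± 27 CPM (SD, n = 5), and passed in each of the 11 omissions. Within lane 5 it was 80.1 CPM in the fed library and 86.9 to 151 in the 4 fasted ones, and within lane 6 it was 56.6 to 78.5 CPM in 4 fed libraries and 133 in the fasted one. With lane as a term the log2 fold change was 0.70 at an adjusted p of 0.0530. HFD fasted 23, 24, 26 and 28 had 199, 131, 157 and 128 CPM, a range that takes in that of HFD fed libraries. The difference of the fasting responses was 0.59 ± 0.23 on the log2 scale, with an unadjusted p of 0.0181 and an adjusted p of 0.567 (edgeR).

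Pdgfrb, the other PDGF receptor and a marker of perivascular cells, was 145 ± 15 CPM at peak weight and 167 ± 36 after fasting with HFD (SD, n = 4 each). With Ensure it was 147 ± 22 fed (SD, n = 6) and 135 ± 38 fasted (SD, n = 5), and all 4 groups overlapped. Its highest value was 213 CPM in HFD fasted 28, where the 8 pericyte markers had their lowest sum, 421 CPM, against 789 to 882 in the other HFD fasted libraries. Of the 6 PDGF ligands and processing enzymes (Pdgfa to Pdgfd, Furin and Plat), 0 passed in any comparison by edgeR. Pdgfc, a ligand of the alpha receptor, had 35.8 ± 3.1 CPM in HFD fed and 24.8 ± 6.3 in HFD fasted libraries (SD, n = 4 each; unadjusted p = 0.00869, adjusted p = 0.176, edgeR).

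Dpp4 encodes a membrane peptidase and Pi16 a peptidase inhibitor, both used to define interstitial progenitors. Dpp4 was lowest at 29.3, median 49.5 and highest at 57.9 CPM in the 6 Ensure fed libraries, and 54.3, 104, 83.0, 86.4 and 78.8 CPM in Ensure fasted 2, 5, 7, 8 and 17. Only Ensure fasted 2 lay within the fed range. Dpp4 rose by 0.75 ± 0.23 on the log2 scale (SE; adjusted p = 0.0319, edgeR). In HFD fasted 23, 24, 26 and 28 it was spread widely, with 50.1, 87.8, 73.1 and 28.5 CPM. This was around the 41.0 to 56.1 CPM of HFD fed libraries. Cdh16 was 51.1 and 47.5 CPM in HFD fasted 24 and 26, and 0.36 and 0.38 in 23 and 28. It was 34.1 CPM in Ensure fasted 5, where Dpp4 was highest. Other libraries with Cdh16 above 20 CPM did not have high Dpp4. Ensure fasted 2 had the lowest Dpp4 of its group, and Ensure fed 16 and HFD fed 21 had 46.5 and 51.9 CPM. How far epithelial cells contribute to the Dpp4 counts was not tested.

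Pi16 was lowest at 59.3, median 81.5 and highest at 93.4 CPM in Ensure fed libraries. It was 91.0, 98.7, 243, 175 and 114 CPM in Ensure fasted 2, 5, 7, 8 and 17, with Ensure fasted 2 alone inside the fed range. The rise was 0.89 ± 0.27 on the log2 scale (SE; adjusted p = 0.0308, edgeR). HFD fed 21, 22, 25 and 27 had 79.0, 80.3, 52.6 and 102 CPM, and HFD fasted 23, 24, 26 and 28 had 79.0, 47.3, 82.3 and 31.1 CPM, overlapping groups. Ensure fasted libraries were all above HFD fasted ones, by a log2 fold change of 1.27 ± 0.31 (SE; adjusted p = 0.0377, edgeR), an order without overlap that 2.51% of genes showed. The fasted diets share no lane, so diet and lane cannot be told apart there. The difference of the fasting responses of Pi16 was 1.27 ± 0.42 on the log2 scale, at an unadjusted p of 0.00767 and an adjusted p of 0.526 (edgeR).

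The Ensure fasting calls of Dpp4 and Pi16 depended on single libraries, while their direction did not. Over the 11 omissions of 1 library the log2 fold change was 0.60 to 0.83 for Dpp4 and 0.61 to 0.96 for Pi16. Dpp4 lost its call in 8 of 11 omissions of 1 library (adjusted p up to 0.101), all but those of Ensure fed 12 and Ensure fasted 2 and 17, and Pi16 in 6 of 11 (up to 0.0958), those of Ensure fed 1, 12, 16 and 18 and Ensure fasted 7 and 8. Within lane 5, Dpp4 was 50.8 CPM in the fed library and 54.3 to 104 in the fasted ones, and Pi16 80.7 against 91.0 to 243. Within lane 6, Dpp4 was 29.3 to 57.9 CPM in fed libraries against 78.8 in the fasted one, and Pi16 59.3 to 93.4 against 114. With lane as a term the log2 fold change was 0.71 for Dpp4 and 0.74 for Pi16, at adjusted p of 0.257 and 0.339. Without the 5 libraries rich in epididymis and testis genes it was 0.70 and 1.15, at 0.0853 and 0.0551, in a fit with fewer libraries. The Pi16 call between the fasted diets was lost in 6 of 9 omissions, those of HFD fasted 23, 24 and 28 and Ensure fasted 7, 8 and 17 (adjusted p up to 0.107), with log2 fold changes of 0.99 to 1.45 over the 9 omissions. When these groups were fitted alone it was 1.25 at an adjusted p of 0.356.

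A list of 20 other interstitial progenitor genes had 2 members higher and 1 lower with Ensure fasting, where 20.3% of all genes passed, and 0 in any other comparison by edgeR. Efhd1 rose by 0.94 ± 0.24 and Limch1 by 0.69 ± 0.18, and Igfbp5, an IGF binding protein, fell by 0.74 ± 0.17 on the log2 scale (SE; adjusted p 0.0131, 0.0137 and 0.0059, edgeR), and all 3 passed in each omission of 1 library. Without Ensure fasted 5 the list had 4 higher, and without the 5 libraries rich in epididymis and testis genes it had 1 called, Timp2. Of 20 committed preadipocyte genes, 1 rose and 2 fell with Ensure fasting, against the same 20.3%. This list includes Pparg, Cebpa, Lpl and Fabp4. Its sum was 28600 to 68380 CPM per library, beside 7298 to 20740 CPM for the 10 adipocyte markers. The part of adipocytes in the list's values was not tested. The collagen gene Col15a1 was called lower with fasting in both diets, with log2 fold changes of -1.0 ± 0.23 with HFD (SE; adjusted p = 0.0376, edgeR) and -0.93 ± 0.20 with Ensure (0.00366), the only committed gene called with HFD. The call with HFD was lost in 7 of 8 omissions (log2 fold changes of -1.11 to -0.85), that with Ensure in none of 11. Adam12 fell by 1.16 ± 0.35 with Ensure and Sdc1, a cell surface proteoglycan, rose by 0.77 ± 0.25, a call lost in 8 of 11 omissions. Among 20 shared stromal and fibroblast genes, 0 passed in either fasting comparison. The 19 Wnt and BMP genes that act on preadipocytes had 4 higher with Ensure fasting, where 10.6% of all genes were higher, and 1 lower, Wnt5a (-0.71 ± 0.21). Among the 4 was the Wnt antagonist Sfrp5 (1.04 ± 0.26), and without Ensure fasted 5 the list had 2 higher, Sfrp5 and Klf4, and without the 5 libraries rich in epididymis and testis genes 1, Sfrp5. The Klf4 call was lost in 7 of 11 omissions of 1 library and that of Sfrp5 in none. The list's median log2 fold change was 0.46, beside 0.11 over all tested genes. Between the fed diets 2 of the 19 were lower with Ensure, where 2.17% of all genes were lower: Sfrp5 by a log2 fold change of -1.51 ± 0.27 (SE; adjusted p = 0.00552, edgeR), which passed in each of 10 omissions, and Wnt11 by -0.95 ± 0.26, which was lost in 9.

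Between the fed diets, Dcn and Gsn, matrix and actin-binding genes abundant in fibroblasts, were lower with Ensure together with Pdgfra. Both were also called lower with Ensure among fasted libraries, a call lost in 1 of 9 omissions for Dcn and 3 for Gsn. Dcn was 1715 ± 217 CPM in HFD fed (SD, n = 4) and 957 ± 87 in Ensure fed libraries (SD, n = 6), at an adjusted p of 0.00415, and Gsn 10800 ± 2857 and 4438 ± 389 CPM (SD, same n), at 0.00121 (edgeR). Among fed libraries in the shared stromal list, these 2 were lower and 1 gene, Mfap4, was higher, so the list did not go one way. The Mfap4 call was lost in 4 of 10 omissions. The basement membrane collagens Col4a1 and Col4a2 were higher with Ensure in fed libraries, by 0.84 ± 0.21 and 0.89 ± 0.22 on the log2 scale, and in fasted libraries, by 1.01 ± 0.22 and 1.07 ± 0.23 (SE; adjusted p 0.0212 to 0.0336, edgeR). The third committed gene called between the fed diets, Sdc1, was lower with Ensure (-0.99 ± 0.27, adjusted p = 0.0429, edgeR). Both collagens lost the fed call in 6 of 10 omissions and the fasted one in 3 of 9, and Sdc1 lost its call in all 10.

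Cd34, a sialomucin of progenitor and endothelial surfaces, varied least over the libraries, 2.04-fold between the lowest and the highest. It was 217, 188, 204 and 238 CPM in HFD fed 21, 22, 25 and 27 and 175, 151, 195 and 166 in HFD fasted 23, 24, 26 and 28. Ensure fed libraries had 187 to 237 CPM and Ensure fasted 2, 5, 7, 8 and 17 had 212, 137, 269, 263 and 280. The lowest value of the series was thus that of Ensure fasted 5. Between the fasted diets the log2 fold change was 0.44 ± 0.16 (SE; adjusted p = 0.145, edgeR) with all libraries and 0.55 without Ensure fasted 5, when it passed (adjusted p = 0.00834, edgeR). Cd34 did not pass in the other 8 of 9 omissions of 1 library (adjusted p up to 0.286, edgeR). Its log2 fold change was 0.36 to 0.55 over the 9 omissions.

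Ly6a, which encodes the surface antigen SCA-1, was 122 ± 17 CPM in HFD fed and 153 ± 35 in HFD fasted libraries (SD, n = 4 each). It was 113 ± 21 CPM in Ensure fed (SD, n = 6) and 163 ± 53 in Ensure fasted libraries (SD, n = 5), where libraries 7, 8 and 17 had 177, 226 and 196 CPM and libraries 2 and 5 had 106 and 109. The Ensure log2 fold change was 0.53 ± 0.20 (SE), which did not pass (adjusted p = 0.0634, edgeR). Over the 11 omissions of 1 library the log2 fold change was 0.35 (adjusted p = 0.180, without Ensure fasted 8) to 0.60 and passed in 3. It was 0.77 without the 5 libraries rich in epididymis and testis genes, when it passed (adjusted p = 0.0244, edgeR), and 0.66 with lane as a term, when it did not (0.174). Endothelial markers, whose cells also express Ly6a and Cd34, summed to 1657 to 2280 CPM in Ensure fed and 1222 to 2657 in Ensure fasted libraries, and their part in these values was not tested. Whether reads shared with relatives of the Ly6 family affect its count was not tested. In the Ly6 family 1 of 8 tested relatives passed in 1 comparison, Ly6e between the fasted diets (1.10 ± 0.22, adjusted p = 0.0155, edgeR).

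Dlk1, also called Pref-1, is a membrane protein that holds preadipocytes in the undifferentiated state. It was near the limit of detection, with 3 to 48 counts per library and 0.164 to 2.29 CPM, and its fold changes had 95% intervals reaching more than 1 log2 unit to each side of 0. Within groups its SD was 48.0 to 89.7% of the mean. Dlk1 passed in none of the 5 comparisons, and the part of depth in this was not tested. It was highest where another cell type's markers were. In the 6 libraries with Cdh16 above 20 CPM Dlk1 was 1.71 to 2.15 CPM, namely Ensure fasted 2 and 5, Ensure fed 16, HFD fasted 24 and 26 and HFD fed 21. Among the other 13 libraries it reached 2.29 CPM in Ensure fed 1, where Cdh16 was 13.0 CPM, and was at most 1.07 CPM elsewhere. The 3 genes most like Dlk1 over the 19 libraries were Lcn2, Sorcs2 and Bmp7, with Pearson's r of 0.944, 0.903 and 0.881. Of these, Bmp7 belongs to the interstitial progenitor list. The part of epithelial cells in the Dlk1 counts was not tested. Of 9 tested Dlk1 neighbours and Notch partners, 1 rose with Ensure fasting, Notch2 (0.38 ± 0.11). Another, Notch3, was higher with Ensure among fasted libraries (0.71 ± 0.18). The Notch2 call was lost in 1 of 11 omissions and the Notch3 call in 7 of 9. Meg3, the imprinted neighbour of Dlk1, was not called in any comparison and was 47.3 to 124 CPM in group means.

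F3 encodes tissue factor, the cell surface receptor that starts coagulation, and in fat marks the regulatory stromal cells described above. Icam1 encodes an adhesion molecule that binds leukocyte integrins and marks committed preadipocytes. F3 was 55.5, 54.6, 52.8 and 61.3 CPM in HFD fed 21, 22, 25 and 27 and 84.3, 57.0, 67.1 and 169 CPM in HFD fasted 23, 24, 26 and 28. Icam1 was 35.6, 29.4, 35.3 and 37.7 CPM in the same fed libraries and 48.5, 34.3, 40.2 and 86.8 in the fasted ones. Both were highest in HFD fasted 28, whose macrophage marker sum was 6799 CPM against 4623, 1601 and 2166 in HFD fasted 23, 24 and 26, and whose adipocyte sum was 8137 CPM against 12650, 16200 and 12440. This is also the library with the largest share of reads aligned to several places, 27.7%. With HFD fasting the log2 fold change of F3 was 0.75 ± 0.26 and that of Icam1 0.60 ± 0.23 (SE; adjusted p 0.196 and 0.225, edgeR), and without HFD fasted 28 they were 0.33 and 0.27. The part of macrophages, adipocytes and read alignment was not tested.

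Between the diets, F3 was lower with Ensure. In Ensure fasted 2, 5, 7, 8 and 17 it was 38.2, 27.3, 40.9, 44.8 and 56.0 CPM, each below the lowest HFD fasted library, as for 1.48% of genes, and the log2 fold change was -1.18 ± 0.25 (SE; adjusted p = 0.0193, edgeR). It passed in each of the 9 omissions, with -0.77 without HFD fasted 28, but not when these groups were fitted alone (adjusted p = 0.275). Lane cannot be told apart from diet in this pair of groups. Among fed libraries the groups did not overlap either, with at most 47.7 CPM in Ensure fed and at least 52.8 in HFD fed libraries, as for 7.37% of genes. There the log2 fold change was -0.53 ± 0.24 (SE; adjusted p = 0.241, edgeR), and in lane 7 Ensure fed 18 had 34.3 CPM. Icam1 was 37.0 ± 5.1 CPM in Ensure fed (SD, n = 6) and 39.1 ± 8.3 in Ensure fasted libraries (SD, n = 5), overlapping both HFD groups.

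Of 14 tested genes of the F3-positive regulatory population, 1 rose with Ensure fasting, Abcg1 (1.02 ± 0.34, and 0.56 without Ensure fasted 8, when it did not pass), and Cygb was lower and Clec11a higher with Ensure among fasted libraries (-0.79 ± 0.17 and 0.92 ± 0.20). Among 9 tested coagulation partners of F3, the receptor gene F2rl1 rose with Ensure fasting (1.78 ± 0.60), with a SD of 14.1 CPM around a mean of 10.4. Its log2 fold change was 0.41 without Ensure fasted 5 (adjusted p = 0.540, edgeR). F7, the ligand of tissue factor, was lower with Ensure in fed libraries (3.49 ± 1.84 against 24.6 ± 9.1 CPM, adjusted p = 0.0309 by edgeR). The F7 call was lost in 7 of 10 omissions. Of the ICAM and integrin genes, Itgax, an integrin of macrophages and dendritic cells, was lower with Ensure in fed (24.9 ± 6.0 against 147 ± 51 CPM) and fasted libraries (29.2 ± 17.6 against 259 ± 237 CPM; adjusted p 0.0123 and 0.00864, edgeR). In the same list of 9 tested genes, Selp, the adhesion receptor P-selectin, was higher with Ensure in fed libraries (1.16 ± 0.27, adjusted p = 0.0208, edgeR). Icam5 was lower with Ensure in fed libraries (-1.5 ± 0.33, adjusted p = 0.0166, edgeR) and rose with Ensure fasting (1.63 ± 0.32, adjusted p = 0.00205, edgeR).

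**Figure D4:**
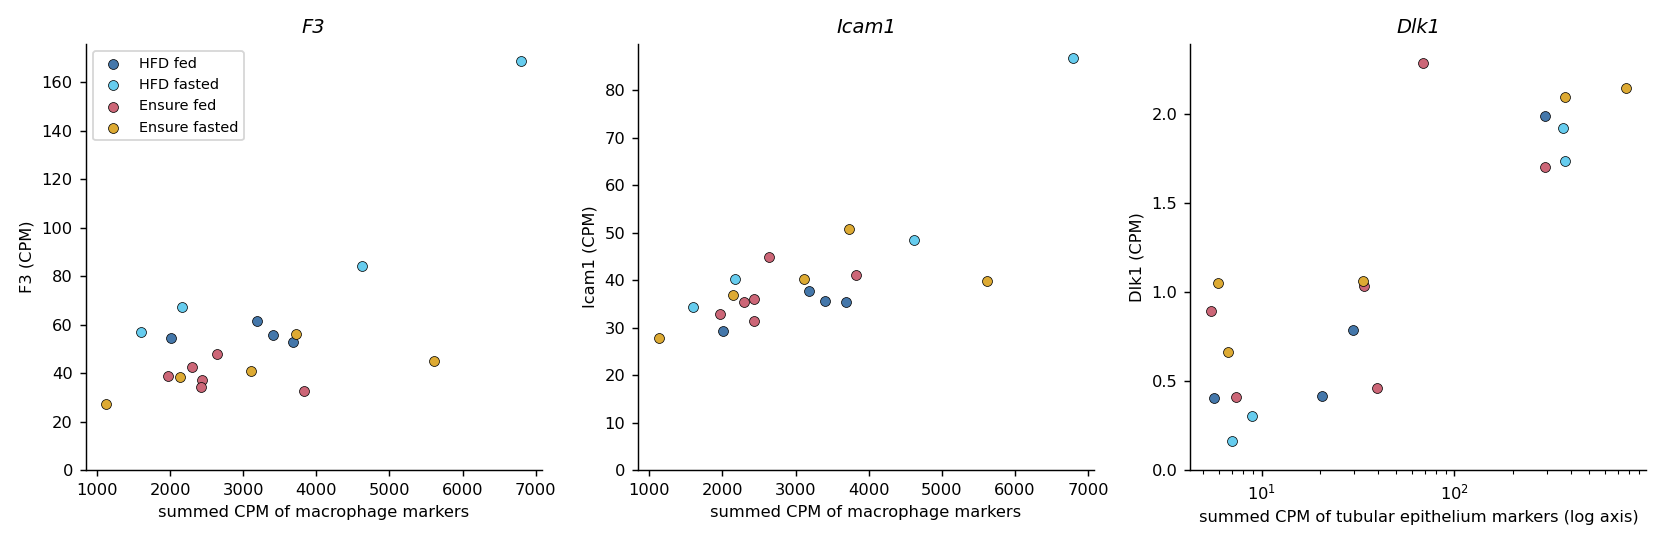
F3 and Icam1 (y axes, CPM) against the summed CPM of 10 macrophage markers, and Dlk1 against that of 8 tubular epithelium markers (log x axis), 1 point per library coloured by group. HFD fasted 28 stands alone at the upper right for F3, at 169 CPM, and for Icam1, at 86.8 CPM.

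Promoter sequences are shown for F3 and Icam1, the pair of members with the highest Pearson's r within groups, and for Pdgfra and Dpp4, called with Ensure fasting. They are the 250 bases before the RefSeq start site in GRCm38.p6, a later build than that of the counts. The RefSeq promoter table held 7 of the 10 members. Capitals mark matches, on either strand, to any of 7 motifs. The motifs are the TATA box with the letters TATAAA, the AP-1 site with TGANTCA, the NF-kB core with GGANNNTCC and the FOXO site with GTAAACA. The others are the SP1 box with the letters GGGCGG, the CREB half-site with TGACG and the glucocorticoid receptor half-site with AGAACA.
F3 (chr3:121723287-121723536, plus strand): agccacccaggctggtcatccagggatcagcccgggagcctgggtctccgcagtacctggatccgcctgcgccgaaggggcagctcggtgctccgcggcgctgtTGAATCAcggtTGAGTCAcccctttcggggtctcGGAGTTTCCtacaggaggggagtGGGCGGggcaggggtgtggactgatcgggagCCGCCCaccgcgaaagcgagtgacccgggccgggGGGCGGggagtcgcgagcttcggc
Icam1 (chr9:21015690-21015939, plus strand): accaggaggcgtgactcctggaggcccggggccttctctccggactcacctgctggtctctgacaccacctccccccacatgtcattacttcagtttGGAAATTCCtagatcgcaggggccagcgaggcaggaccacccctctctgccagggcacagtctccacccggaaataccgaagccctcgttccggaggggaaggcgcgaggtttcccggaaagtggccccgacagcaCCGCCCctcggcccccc
Pdgfra (chr5:75152001-75152250, plus strand): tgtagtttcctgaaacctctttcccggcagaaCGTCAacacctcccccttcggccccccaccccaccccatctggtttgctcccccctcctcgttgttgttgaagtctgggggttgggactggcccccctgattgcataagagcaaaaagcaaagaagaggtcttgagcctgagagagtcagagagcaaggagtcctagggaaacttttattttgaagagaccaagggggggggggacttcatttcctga
Dpp4 (chr2:62412232-62412481, minus strand): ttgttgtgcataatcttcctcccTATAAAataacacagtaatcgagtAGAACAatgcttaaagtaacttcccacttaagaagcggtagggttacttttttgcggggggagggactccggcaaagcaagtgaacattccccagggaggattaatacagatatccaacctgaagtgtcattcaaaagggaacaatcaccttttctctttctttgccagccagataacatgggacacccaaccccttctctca
F3 and Icam1 each hold 1 match to the NF-kB core, GGAGTTTCC and GGAAATTCC, a motif found in 7.27% of the 32851 promoter windows of this length. F3 also holds 2 AP-1 matches, a motif in 6.75% of windows, and 3 SP1 matches, a motif in 32.7%. Icam1 holds 1 SP1 match. Pdgfra holds 1 CREB half-site, a motif in 17.8% of windows. Dpp4 holds 1 match to the TATA box letters, at positions -227 to -222 from the start site, and 1 glucocorticoid receptor half-site, motifs in 12.4% and 16.1%. The FOXO letters (3.17% of windows) are in none of these 4 windows, and no matches within them overlap. Among members not shown, the window of Dlk1 holds FOXO matches and a CREB half-site. That of Pi16, also called with Ensure fasting, holds a glucocorticoid receptor half-site. A match describes the sequence and is no evidence of binding.

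Within groups, Icam1, F3 and Pdgfrb varied together by Pearson's r over all 19 libraries, a result that depended on the libraries included. Of 45 pairs of members, 3 had an adjusted p under 0.05 for Pearson's r of log2 CPM centred on group means, over 19 libraries, by a two-sided permutation test within groups (100000 permutations, adjusted over the 45 pairs). They were Pdgfrb with Icam1 (r = 0.80, p = 0.0002, adjusted p = 0.009; rho = 0.74, p = 0.00246, adjusted p = 0.0505), Icam1 with F3 (r = 0.91, p = 0.00059, adjusted p = 0.012; rho = 0.72, p = 0.00407, adjusted p = 0.0505) and Pdgfrb with F3 (r = 0.76, p = 0.0008, adjusted p = 0.012; rho = 0.66, p = 0.0103, adjusted p = 0.0607). By Spearman's rho 0 pairs had an adjusted p under 0.05 in this permutation test. Without the 2 libraries farthest from the median of the first gene, r was 0.71, 0.72 and 0.63. The count of pairs depended on single libraries: it was 1 without Ensure fasted 5 or 17, 5 without HFD fasted 23, HFD fasted 26 or Ensure fed 1, 6 without Ensure fed 9, and 13 without HFD fasted 28. The count was 0 without the 5 libraries rich in epididymis and testis genes, also when those with Cdh16 above 20 CPM were omitted too. It was also 0 without HFD fasted 28 and Ensure fasted 5 together. Cd34 with Wisp2 had r = 0.80 at an adjusted permutation p of 0.0561. Dpp4 had negative r with F3 and Icam1 (-0.68 and -0.62; adjusted permutation p 0.13 and 0.14), which were -0.21 and -0.08 without the 2 farthest libraries.

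**Figure D5:**
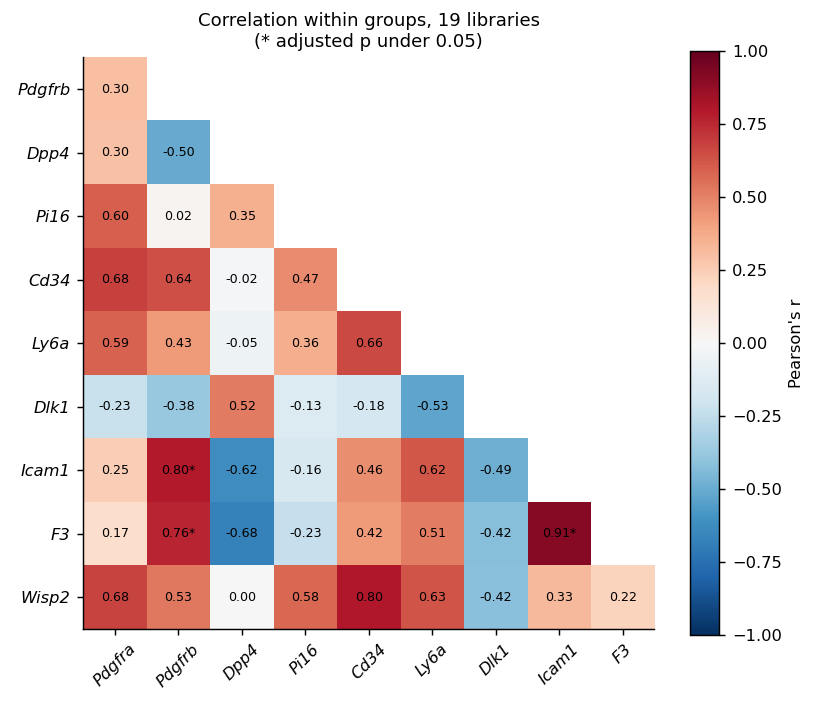
Pearson's r (colour and number) of log2 CPM centred on group means for each of the 45 pairs of members over 19 libraries; a star marks an adjusted permutation p under 0.05. The 3 starred pairs join Pdgfrb, Icam1 and F3, at 0.76 to 0.91.

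The genes whose log2 CPM was most like that of each member over all 19 libraries, among tested genes of at least 5 CPM, were found by Pearson's r without regard to group, as a description. For Wisp2 they were Peg10, Pdk4 and Ppfibp1 (r = 0.935, 0.889 and 0.887). Pdgfra was followed by Dcn, Ephx1 and Slco2b1 (0.933, 0.927 and 0.911). Those of F3 were Tnfsf12, Amz1 and Panx1 (0.938, 0.934 and 0.928) and those of Icam1 Gsdmd, Dlgap4 and Traf1 (0.921, 0.915 and 0.909). Ly6a came closest to Tor3a and the class I genes H2-T23 and H2-D1 (0.917, 0.889 and 0.883). For Cd34 they were Kdelc2, Cadm3 and Arsi (0.874, 0.860 and 0.855), for Pdgfrb Rhbdf2, Snx11 and Clip2 (0.859, 0.845 and 0.844), for Dpp4 Il17re, Dact2 and Fzd2 (0.854, 0.847 and 0.846) and for Pi16 Stim1, Sil1 and Foxo1 (0.848, 0.844 and 0.827). Dact2 belongs to the interstitial list and was 11.8 ± 4.9 CPM in Ensure fed and 20.7 ± 7.3 in Ensure fasted libraries.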

How the data were processed

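RNA from whole perigonadal fat was extracted with an RNeasy kit, poly-A selected, prepared with TruSeq and sequenced on a HiSeq2000, per the labels' protocols. The submitters' processing notes name HTSeq 0.6.1, TopHat2 2.1, bcl2fastq 1.8.4 and the build mm9. Whether counting used strand is not given in the sources used here. Deposited by the authors were raw read counts per gene symbol for each of 19 libraries. Without strand, reads of Pdgfra, Dpp4, Pi16, Cd34 and Icam1 and of transcripts annotated opposite to them in GENCODE vM21 cannot be told apart. Lines that name no gene were left out of library sizes and tests. Of all lines summed, reads outside genes were 13.0 to 17.3%, those aligned to several places 20.7 to 27.7% and ambiguous ones 0.696 to 0.893%.

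All 19 libraries and 4 groups entered 1 fit of edgeR 4.0.16 (R 4.3.3; TMM, filterByExpr at a minimum count of 10, quasi-likelihood F test), with Benjamini-Hochberg adjustment over 16015 genes. SE is the log2 fold change over the square root of F. Correlations used log2(CPM + 0.5). Exon lengths are from GENCODE vM21, where Wisp2 is Ccn5, and promoters from RefSeq. Chi-square values for the 37 within-group library pairs were at least 6.77 per gene, so none was counted as a repeat. Alternatives were DESeq2 1.42.0, limma 3.58.1 voom, other scalings and filters, the compared groups alone, a lane term and omitted libraries.

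The members and lists were chosen with earlier results of these data known. Genes named were all members, the 3 genes most like each, and up to 4 of smallest p per list and comparison.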

Additional observations from a re-analysis of the deposited data

Results flagged for a closer look

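Of 40 sets of a member and a group checked for a library far from the others, 1 stood out. Pdgfra was 56.6 CPM in Ensure fed 10, and the nearest of the other 5 Ensure fed libraries had 74.6 CPM, a gap of 0.766 of the group's range (critical value 0.625). Chance flags about 1 in 20 groups. Ensure fed 10 is among the libraries rich in epididymis and testis genes (658 CPM). Without it, Pdgfra remained past the threshold with Ensure fasting and between the fed diets. In the difference of the fasting responses, Pdgfra passed neither with nor without this library. The part of epididymis and testis cells was not tested.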

How the results depend on the processing

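Calls of members and of all genes moved with the test and the libraries; the cause was not tested. Of all 50 pairs of a member and a comparison, 16 had an unadjusted p under 0.05, and no alternative reversed their direction. Of the other 34, 26 changed sign in at least 1 alternative and 4 were called in one: by voom, Dpp4 with HFD fasting and Cd34 with Ensure fasting and in the difference, and without the 8 libraries named below, Dpp4 between the fasted diets.

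DESeq2 called 633 genes with HFD fasting, 65 in the difference, 1551 between the fed and 1295 between the fasted diets. Limma voom with quality weights called 2974 genes with HFD fasting, 5638 with Ensure fasting, 1170 in the difference, 5441 between fed and 3418 between fasted diets, and 2 members with HFD fasting (Dpp4, Wisp2), 3 in the difference (Pdgfra, Pi16, Cd34) and 2 between fed diets (Pdgfra, F3).

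With a lane term the counts of genes were 62 and 760 in the HFD and Ensure fasting comparisons, 2 between fed and 0 between fasted diets. It left 1 member, Wisp2, with Ensure fasting and 0 between the diets in either state. In fits of the compared groups alone, 1 gene and 0 members passed with HFD fasting, 2933 genes and 2 members (Pdgfra, F3) between fed diets, and 1 gene and 0 members between fasted diets. With no filter 1 member, F3, passed between fasted diets.

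Without the 5 libraries rich in epididymis and testis genes, 1145 genes passed with Ensure fasting, and 0 pairs of members were correlated, against 3 with all libraries. Omitting also those with Cdh16 over 20 CPM (8 libraries) gave 910 genes and 3 members (Icam1, F3, Wisp2) with HFD fasting, 772 and 2 (Pdgfra, Wisp2) with Ensure fasting, 1 gene in the difference, 213 genes between fed diets, 1598 genes and 4 members (Dpp4, Pi16, Cd34, F3) between fasted diets, and 0 pairs. Without HFD fasted 28 and Ensure fasted 5, a setting chosen after seeing the data like all those of the correlations and of the gene and marker lists, 403 genes passed with HFD fasting, 2333 genes and 2 members (Pdgfra, F3) between fed diets, and 0 pairs.

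Leaving out 1 library at a time gave 0 to 1 members and 23 to 141 genes with HFD fasting, 2 to 5 members and 2288 to 3810 genes with Ensure fasting, 1 member and 239 to 878 genes between fed diets, 1 to 3 members and 209 to 767 genes between fasted diets, and 1 to 13 pairs. No paired analysis was possible because no replicate number occurs in more than 1 group.

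Dlk1 alone among the members was near the limit of detection, at 3 to 48 counts per library. Lane and diet coincide almost wholly, and the within-lane comparisons of Ensure libraries, or of the fed diets, rest on 1 library on one side. All 8 HFD libraries are in lane 7.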
